A study of Mus musculus with 24 samples.

Results

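The 10 genes described here belong to antioxidant defence and metal binding and were followed through white and brown adipogenesis with and without a green tea catechin. They are the 3 superoxide dismutases Sod1, Sod2 and Sod3, catalase (Cat), the glutathione peroxidases Gpx1, Gpx3 and Gpx4, the metallothioneins Mt1 and Mt2 and the zinc exporter Slc30a1. The 10 genes were chosen by symbol from the 37310 genes of the deposited tables, each symbol matched 1 gene, and all 10 passed the filter on low values. RNA sequencing had been done on stromal vascular fraction (SVF) cells, a mixed cell fraction that holds the adipocyte precursors, isolated from the inguinal white adipose tissue (WAT) and the interscapular brown adipose tissue (BAT) of C57BL/6 mice aged 6 weeks. Confluent cells of all groups received an induction medium with insulin, dexamethasone and isobutylmethylxanthine until day 4, and then a medium with insulin and the thyroid hormone T3 until day 8. Epigallocatechin gallate (EGCG) or its solvent DMSO was added to the culture medium, at a dose that the labels do not give. Each depot, day and treatment had 3 libraries, which made 8 groups and 24 libraries: WAT or BAT cells on day 4 or day 8, as control or with EGCG. The labels do not say whether replicates came from separate isolations or from pooled animals, so p-values here measure the spread between libraries only.

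Superoxide dismutases turn superoxide, a by-product of respiration and of oxidases, into hydrogen peroxide, and catalase and the glutathione peroxidases remove the peroxide. Metallothioneins are small cysteine-rich proteins that bind zinc and copper and react with oxidants. Their genes and the gene of the zinc exporter Slc30a1 are classical targets of the zinc sensor MTF1, which binds metal response elements in their promoters, and metallothionein genes also respond to glucocorticoids, a class to which the dexamethasone of the induction medium belongs.

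The coding sequences of Mt1 and Mt2 are shown because they explain the name and the metal binding of this family and how far reads of the 2 genes could be told apart. Both come from the GENCODE vM1 transcripts, and capitals mark the codons for cysteine.
Mt1: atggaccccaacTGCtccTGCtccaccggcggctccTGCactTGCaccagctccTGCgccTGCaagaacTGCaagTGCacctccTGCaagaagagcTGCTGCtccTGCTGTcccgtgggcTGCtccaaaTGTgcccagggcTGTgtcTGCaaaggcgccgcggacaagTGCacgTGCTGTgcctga
Mt2: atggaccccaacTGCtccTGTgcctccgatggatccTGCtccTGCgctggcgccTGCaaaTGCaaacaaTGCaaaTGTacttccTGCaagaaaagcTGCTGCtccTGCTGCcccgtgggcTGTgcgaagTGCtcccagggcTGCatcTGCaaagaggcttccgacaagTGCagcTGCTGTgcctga
Each has 186 bases and 61 sense codons, 20 of them for cysteine (32.8%), and all 20 cysteine codons stand at the same codon number in both. The sequences are identical at 148 of 186 bases (79.6%), with a longest identical stretch of 20 bases, and no window of 50 bases of the Mt1 transcript occurs whole in that of Mt2.

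The 250 bases before the RefSeq start of Mt1, Mt2 and Slc30a1 are shown because these genes share a regulator. The sequences are from RefSeq (mouse build GRCm38.p6), each was found at 1 place on its chromosome in NCBIM37 (mm9), the build of the deposited data, all are on the plus strand, and capitals mark the metal response element core TGCACNC or TGCGCNC on either strand.
Mt1, chr8:96702739-96702988: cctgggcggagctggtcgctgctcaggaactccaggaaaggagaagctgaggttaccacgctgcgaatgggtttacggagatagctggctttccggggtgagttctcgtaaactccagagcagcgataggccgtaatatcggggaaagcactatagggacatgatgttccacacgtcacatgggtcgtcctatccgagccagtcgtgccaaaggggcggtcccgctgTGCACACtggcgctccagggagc
Mt2, chr8:96696268-96696517: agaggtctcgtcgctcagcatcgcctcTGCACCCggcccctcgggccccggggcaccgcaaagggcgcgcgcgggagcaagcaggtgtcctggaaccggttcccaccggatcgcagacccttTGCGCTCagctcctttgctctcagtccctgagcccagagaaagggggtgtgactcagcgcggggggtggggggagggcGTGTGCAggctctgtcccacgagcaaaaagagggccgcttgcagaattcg
Slc30a1, chr1:193730410-193730659: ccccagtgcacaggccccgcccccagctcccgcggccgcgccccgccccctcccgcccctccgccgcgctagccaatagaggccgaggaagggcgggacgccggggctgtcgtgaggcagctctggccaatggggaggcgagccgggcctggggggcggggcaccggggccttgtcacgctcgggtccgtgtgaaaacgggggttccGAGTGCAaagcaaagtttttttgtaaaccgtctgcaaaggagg
These stretches hold 1 match in Mt1, 3 in Mt2 and 1 in Slc30a1, and the RefSeq windows of 300 bases, which run 50 bases past the start, hold 3, 4 and 2. Among 32851 RefSeq promoter windows of that length 25.7% hold at least 1 match, 6.14% at least 2, 1.31% at least 3 and 0.295% at least 4. No match was present in the windows of Cat, Sod1, Sod2, Gpx1, Gpx3 or Gpx4, and Sod3 had no entry among the windows. The antioxidant response element core TGACNNNGC, on either strand, occurs once each in the windows of Mt2, Slc30a1 and Sod1 and at least once in 12.4% of all windows.

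A stretch around the selenocysteine codon shows what sets the 3 glutathione peroxidases apart from the other enzymes, since this residue of their active site is encoded by a stop codon, in capitals, that the selenoprotein machinery reads through.
Gpx1: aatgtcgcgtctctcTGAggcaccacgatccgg
Gpx3: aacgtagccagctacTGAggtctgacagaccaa
Gpx4: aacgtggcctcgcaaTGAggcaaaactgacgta
Each coding sequence has 1 such codon in frame, at codon 47 of Gpx1, 73 of Gpx3 and 129 of Gpx4. These are counted from the start codon of the GENCODE transcript with the longest coding sequence of each gene (Gpx1-201, Gpx3-001 and Gpx4-002). Positions in other transcripts were not examined.

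The levels are FPKM values, in which the reads of a gene are scaled to its length and to the size of the library, so levels of different genes can be set side by side. Between 39452696 and 52893848 reads per library fell on genes in replicates 1 and 2, and between 16392420 and 41675648 in replicate 3. The fewest reads behind any value of the 10 genes were 406, for a value of Slc30a1. Replicate 3 had been deposited in a table of its own, so tests used replicates 1 and 2 and replicate 3 gives the direction only. One library stood apart. WAT day 8 EGCG replicate 3 had 61.0% of its reads on 5 genes led by Prl3d1, a placental lactogen, against 3.64% to 10.5% on the top 5 genes of the other libraries. Its median-ratio size factor was 0.413, so that a typical gene read less than in its replicates. Replicate 3 was set against the mean of replicates 1 and 2 on the log2 scale. Genes shorter than 300 bases differed by a median of -2.87 to -3.68. Those of 300 to 600 bases differed by -0.98 to -1.20 outside WAT day 8 EGCG. In WAT day 8 EGCG, with the library that stood apart, they differed by -1.98 and longer genes by -1.15 to -1.31. Mt2 (556 bases), Mt1 (631 bases) and Sod1 (646 bases) are the shortest of the 10, but outside WAT day 8 EGCG the replicate 3 value of Mt2 stood 0.04 to 0.38 above the mean of replicates 1 and 2 on that scale, and that of Mt1 0.08 to 0.44. The depot labels were checked on replicates 1 and 2. Zic1, a brown lineage gene, read 3.57 to 11.1 FPKM in BAT cells and at most 0.154 in WAT cells, and Hoxc10, a gene of posterior white depots, read 6.28 to 12.5 in WAT cells and at most 0.0580 in BAT cells. The full marker lists that hold these genes lay closer together. The brown identity list of 6 genes summed to at most 35.7 FPKM in WAT cells and at least 38.2 in BAT cells. The white identity list of 4 genes, of which Tcf21 did not pass the filter, summed to at least 14.8 in WAT and at most 10.0 in BAT. Ucp1, the brown fat uncoupling protein, reached 6.15 to 6.97 FPKM in BAT day 8 controls and was below 1 in every other group.

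EGCG changed most of the 10 genes in each depot and on each day, and the direction differed by gene, day and depot. Cat, Sod1 and Gpx3 fell in all 4 comparisons. Mt1 and Mt2 rose on day 4 in both depots, by 2.02-fold to 2.71-fold, and fell on day 8 in BAT, by 3.48-fold and 4.35-fold. A gene was called at a limma adjusted p under 0.05 (Benjamini-Hochberg over 14095 tested genes), and folds are ratios of mean FPKM of replicates 1 and 2. With EGCG on day 4 in WAT, 4 of the 10 genes rose and 3 fell, where 34.4% of all tested genes rose and 19.3% fell (53.7% in either direction). On day 8 in WAT 2 rose and 6 fell, against 44.7% and 18.9% of all genes (63.6%). In BAT 4 of the 10 rose and 5 fell on day 4, against 27.9% and 20.6% (48.5%), and 1 rose and 8 fell on day 8, against 46.5% and 26.1% (72.6%). The median log2 change of the 10 genes was 0.10 and -0.56 in WAT (day 4, day 8) and -0.04 and -1.47 in BAT, beside 0.09, 0.17, 0.03 and 0.17 over all tested genes in that order. Dividing by median-ratio size factors moved the all-gene medians to between -0.02 and 0.02 and the share of higher genes among those called from 64.1% to 44.7%, 70.3% to 51.2%, 57.6% to 51.3% and 64.0% to 51.8%. With that scaling the counts of the 10 genes were 4 higher and 3 lower, 1 and 6, 3 and 5, and 1 and 8 in the same order.

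**Figure D1:**
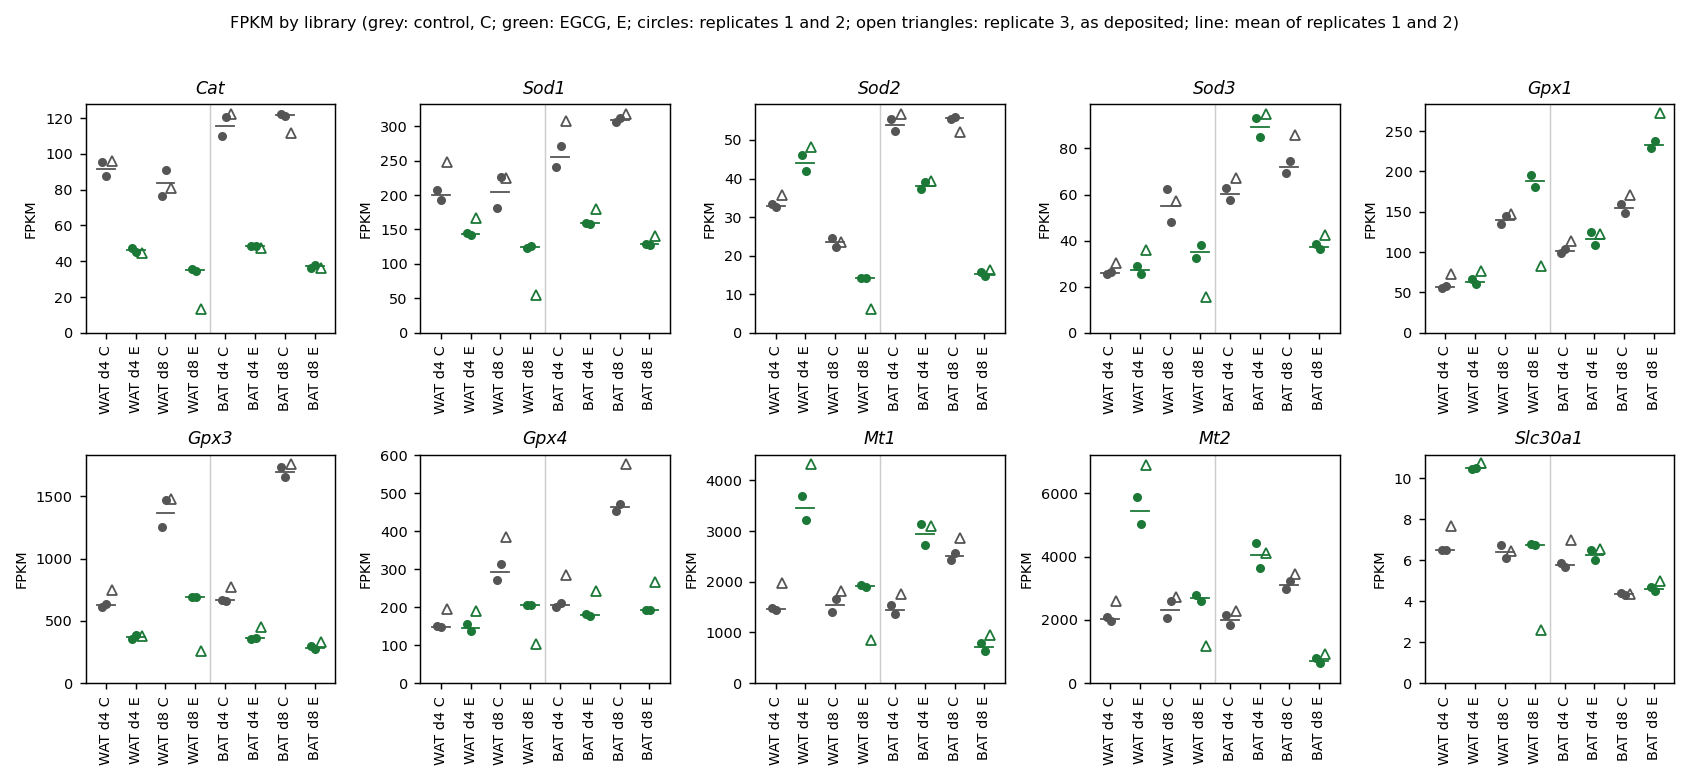
FPKM of the 10 genes in each of the 24 libraries, one panel per gene with a linear axis from 0, with the 8 groups on the x axis (C, control; E, EGCG; d4 and d8, days). Circles are replicates 1 and 2, their mean is the line, and open triangles are replicate 3 as deposited; the triangle of WAT d8 E is the library that stood apart and lies below its replicates in every panel.

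**Figure D2:**
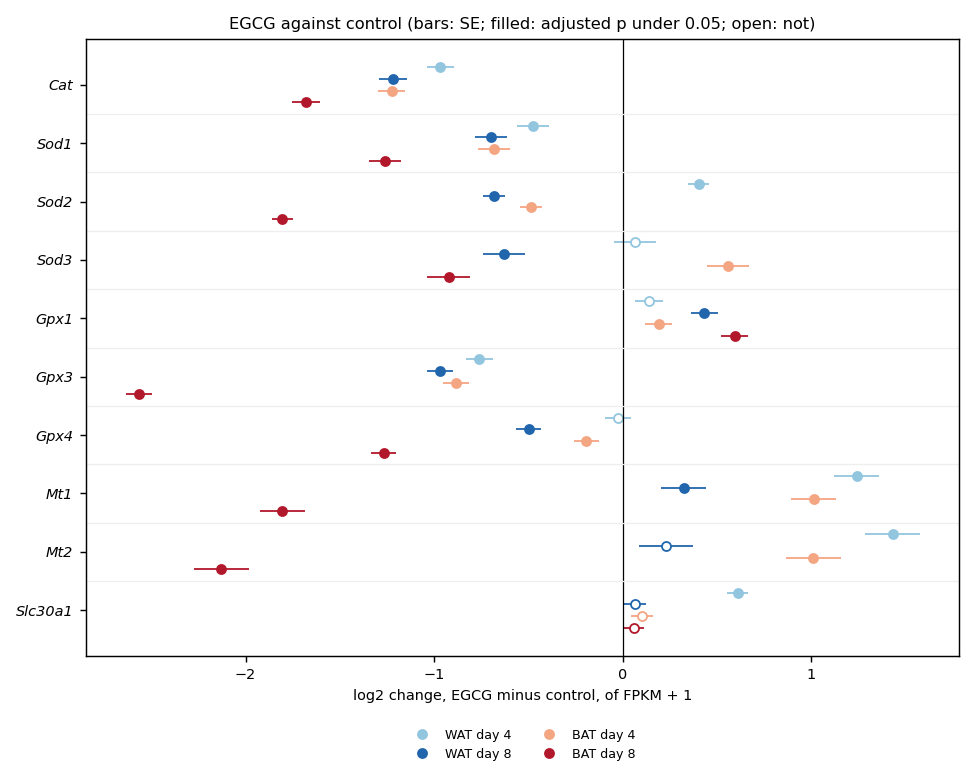
Log2 change of FPKM + 1 with EGCG for each gene in the 4 comparisons, with bars for 1 standard error and filled points for an adjusted p under 0.05. In BAT day 8 every gene except Gpx1 and Slc30a1 lies to the left of 0, down to -2.57 for Gpx3, while Mt1 and Mt2 lie between 1.01 and 1.43 on day 4.

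The treated cells also differed in their adipocyte genes. All 10 mature adipocyte markers on a list that runs from the adipokine Adipoq and the lipid carrier Fabp4 to the lipase Pnpla2 fell with EGCG in all 4 comparisons, with median log2 changes of -3.06 and -4.64 in WAT (day 4, day 8) and -2.18 and -4.40 in BAT. None of the 10 was at 0 in any group, but 1 in WAT day 4 EGCG and 3 in WAT day 8 EGCG had a mean below 1 FPKM. The summed level of all 10 in replicates 1 and 2 was 11884 to 11961 FPKM in BAT day 8 controls and 501 to 512 with EGCG, 6360.3 to 7176 and 667 to 728 in WAT on day 8, 3863 to 4263 and 1126 to 1176 in WAT on day 4, and 6624 to 7689.8 and 1625 to 1693 in BAT on day 4. The part of these markers in the changes of the 10 genes was not tested. In such mixed cultures fewer cells of a type and less RNA per cell cannot be told apart. The EGCG comparisons and the comparisons between days and depots share control libraries.

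Sod2 encodes the manganese dismutase of mitochondria, and its response to EGCG turned with day and depot. Values are given in the order of replicates 1, 2 and 3. Its level in WAT on day 4 was 33.4, 32.5 and 35.9 FPKM as control and 46.1, 41.8 and 48.2 with EGCG. By day 8 the WAT values were 24.5, 22.4 and 23.6 without and 14.2, 14.3 and 6.29 with EGCG, the last from the library that stood apart. The groups did not overlap on either day, and treated cells were the higher ones on day 4 and the lower ones on day 8. The log2 change was 0.40 (SE 0.06, adjusted p 0.000114) on day 4 and -0.68 (SE 0.06, adjusted p 9.49e-07) on day 8, a 1.33-fold rise and a 1.65-fold fall. Brown cells on day 4 held 55.4, 52.3 and 56.7 FPKM as control and 37.2, 39.1 and 39.3 with EGCG. On day 8 the BAT values were 55.6, 56.0 and 52.2 as control and 15.7, 14.8 and 16.3 with EGCG, the widest gap of the 4. Sod2 thus fell 1.41-fold on day 4 (log2 change -0.49, SE 0.06, adjusted p 2.67e-05) and 3.66-fold on day 8 (-1.80, SE 0.06, adjusted p 1.42e-10). The EGCG effect differed between depots on both days, by -0.89 on day 4 (adjusted p 1.79e-05) and -1.12 on day 8 (adjusted p 1.92e-06), BAT minus WAT.

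Sod3, the secreted dismutase of the extracellular matrix, rose with EGCG in BAT on day 4 and fell in both depots on day 8. In BAT on day 4 it read 62.7, 57.8 and 67.4 FPKM in control cells and 93.3, 85.2 and 95.1 with EGCG, and every treated library was above every control. On day 8 the BAT values were 69.2, 74.6 and 86.1 as control and 38.4, 36.5 and 42.3 with EGCG, so that the order was the opposite. The log2 change was 0.56 (SE 0.11, adjusted p 0.00149) on day 4 and -0.92 (SE 0.11, adjusted p 1.29e-05) on day 8, and these 2 effects differed by -1.48 (adjusted p 1.33e-05). White cells on day 4 held 25.7, 26.6 and 30.3 FPKM as control and 29.2, 25.7 and 36.1 with EGCG, with overlapping groups and no called change (0.07, SE 0.11, adjusted p 0.653). By day 8 WAT cells held 62.2, 48.0 and 57.1 as control and 32.3, 38.0 and 15.3 with EGCG, a 1.57-fold fall (-0.63, SE 0.11, adjusted p 0.000419). Without the library that stood apart the treated values of 32.3 and 38.0 still lay below all 3 controls. The difference of the day 4 effects between depots, 0.49 (adjusted p 0.0382), lost its call without any 1 of 9 libraries, with adjusted p up to 0.122: each of the 8 libraries of day 4 except WAT EGCG replicate 1, and both BAT day 8 EGCG libraries.

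Sod1, the abundant copper and zinc dismutase of the cytosol, fell in all 4 comparisons. Control values of replicates 1 and 2 were 193 to 207 FPKM on day 4 and 181 to 226 on day 8 for WAT, 240.4 to 271 and 306 to 311 for BAT, and treated values lay between 124 and 160.1 throughout. The levels of the 4 treated groups were thus closer together than those of the controls, and no treated library overlapped its controls, replicate 3 included. The log2 change was -0.48 and -0.70 in WAT (day 4, day 8) and -0.68 and -1.26 in BAT (SE 0.08 each, adjusted p 6.68e-08 to 0.00056). In BAT the fall was larger on day 8 than on day 4, by 0.58 on the log2 scale (adjusted p 0.00152). Summed over the 3 dismutases, the level per length was 437 ± 7.60 FPKM (SD, n = 2) in BAT day 8 controls and 181 ± 3.14 with EGCG. On day 4 in BAT Sod3 held 17.5%, 15.2% and 15.6% of that sum in controls and 32.1%, 30.2% and 30.3% with EGCG, with no overlap.

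Catalase, the heme enzyme of peroxisomes, fell in all 4 comparisons. On day 4 in WAT Cat read 95.6, 87.6 and 96.2 FPKM in control cells and 47.4, 45.4 and 44.5 with EGCG. By day 8 the WAT values were 76.4, 91.1 and 81.1 as control and 35.9, 34.7 and 13.3 with EGCG. Treated WAT cells lay far below all controls on both days, and their day 8 values were below those of day 4. Brown cells on day 4 held 110.0, 121 and 122 as control and 48.8, 48.6 and 47.3 with EGCG. Those on day 8 held 122, 121 and 112 as control and 36.5, 38.1 and 36.0 with EGCG. Controls stayed between 76.4 and 122 FPKM in both depots, and no treated library exceeded 48.8. The falls were 1.98-fold, 2.37-fold, 2.37-fold and 3.26-fold, with log2 changes of -0.97, -1.22, -1.23 and -1.68 (SE 0.07 each, adjusted p 1.93e-09 to 8.48e-07) for WAT (day 4, day 8) and then BAT. Of all tested genes 1.86% to 4.30% had a lower change than Cat in these comparisons. The effect differed between depots on day 8 (-0.46, adjusted p 0.00468) and, in BAT, between days (-0.45, adjusted p 0.00316).

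Gpx3 encodes the secreted plasma glutathione peroxidase, which adipose tissue makes in quantity. Its level in WAT on day 4 was 615, 635 and 744 FPKM as control and 354, 384 and 377 with EGCG. On day 8 the WAT controls rose to 1254, 1471 and 1475, and treated cells held 692, 696 and 259. No treated library reached its controls, and treated day 8 cells in replicates 1 and 2 were near the level of day 4 controls. In BAT on day 4 the values were 669, 659 and 772 as control and 355, 363 and 447 with EGCG. On day 8 they were 1738, 1655 and 1759 as control and 296, 276 and 332 with EGCG. Control cells of both depots thus more than doubled their Gpx3 by day 8, and treated BAT cells ended below their day 4 level. The falls were 1.69-fold, 1.96-fold, 1.85-fold and 5.93-fold (log2 change -0.76, -0.97, -0.88 and -2.57, SE 0.07 each, adjusted p 4.96e-11 to 3.91e-06). The difference between depots was -1.60 on day 8 (adjusted p 7.53e-07), and on day 4 it was -0.12 (adjusted p 0.383).

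Gpx1, the cytosolic glutathione peroxidase, was the one enzyme of the 7 that rose on day 8, in both depots. In BAT on day 8 it read 159.7, 149 and 171 FPKM as control and 229, 237 and 272 with EGCG. Its WAT levels on day 8 were 134, 144 and 147 as control and 196, 181 and 83.2 with EGCG. Treated values were above all controls of their group except in the library that stood apart, where the other genes of the 10 also read low, and its value after median-ratio scaling was 201. The rise was 1.51-fold in BAT (0.59, SE 0.07, adjusted p 1.33e-05) and 1.35-fold in WAT (0.43, SE 0.07, adjusted p 0.000256), and it was 0.40 and 0.23 after median-ratio scaling, called in both. On day 4 in WAT control values of 56.1, 58.6 and 72.8 stood beside 66.4, 60.2 and 76.1 with EGCG, with no called change (0.14, SE 0.07, adjusted p 0.129). On day 4 in BAT they were 99.5, 104 and 114 beside 125, 109 and 122. This change of 0.19 was called narrowly (SE 0.07, adjusted p 0.0477) and lost its call with the median-ratio scaling (adjusted p 0.106) and without any 1 of 11 libraries (adjusted p up to 0.377, value down to 0.09). These were all libraries tested except WAT day 4 EGCG replicates 1 and 2, WAT day 8 control replicates 1 and 2 and BAT day 4 EGCG replicate 2, and without the last the value was 0.29.

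Gpx4, which reduces lipid hydroperoxides in membranes, fell on day 8. In BAT on day 8 it read 454, 471 and 577 FPKM as control and 192, 191 and 265 with EGCG, a 2.41-fold fall with no overlap (-1.27, SE 0.07, adjusted p 8.58e-09). Its WAT levels on day 8 were 270.5, 314 and 385 as control and 206, 206 and 104 with EGCG, a 1.42-fold fall (-0.50, SE 0.07, adjusted p 4.29e-05), and the groups stayed apart without the last library. On day 4 the change was -0.02 in WAT (adjusted p 0.782) and -0.19 in BAT (adjusted p 0.0325), and the latter lost its call without any 1 of the 4 BAT day 4 libraries (-0.23 to -0.16, adjusted p up to 0.164). The effect was lower in BAT than in WAT on day 8 by 0.77 on the log2 scale (adjusted p 8.01e-05).

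The make-up of the peroxidases on day 8 differed between treated and control cells. In BAT day 8 controls Gpx3 held 73.9%, 72.7% and 70.1% of the summed FPKM of the 3 peroxidases and Gpx1 held 6.79%, 6.54% and 6.83%. With EGCG Gpx3 held 41.3%, 39.1% and 38.2% and Gpx1 31.9%, 33.7% and 31.3%. The shares of the 2 groups lay far apart in all 3 replicates. In WAT on day 8 the share of Gpx1 went from 8.10%, 7.48% and 7.31% to 17.9%, 16.7% and 18.6%, and the library that stood apart was like its replicates on this within-library scale. The summed level itself was 2313 ± 54.2 FPKM (SD, n = 2) in BAT day 8 controls and 711 ± 8.85 with EGCG.

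**Figure D3:**
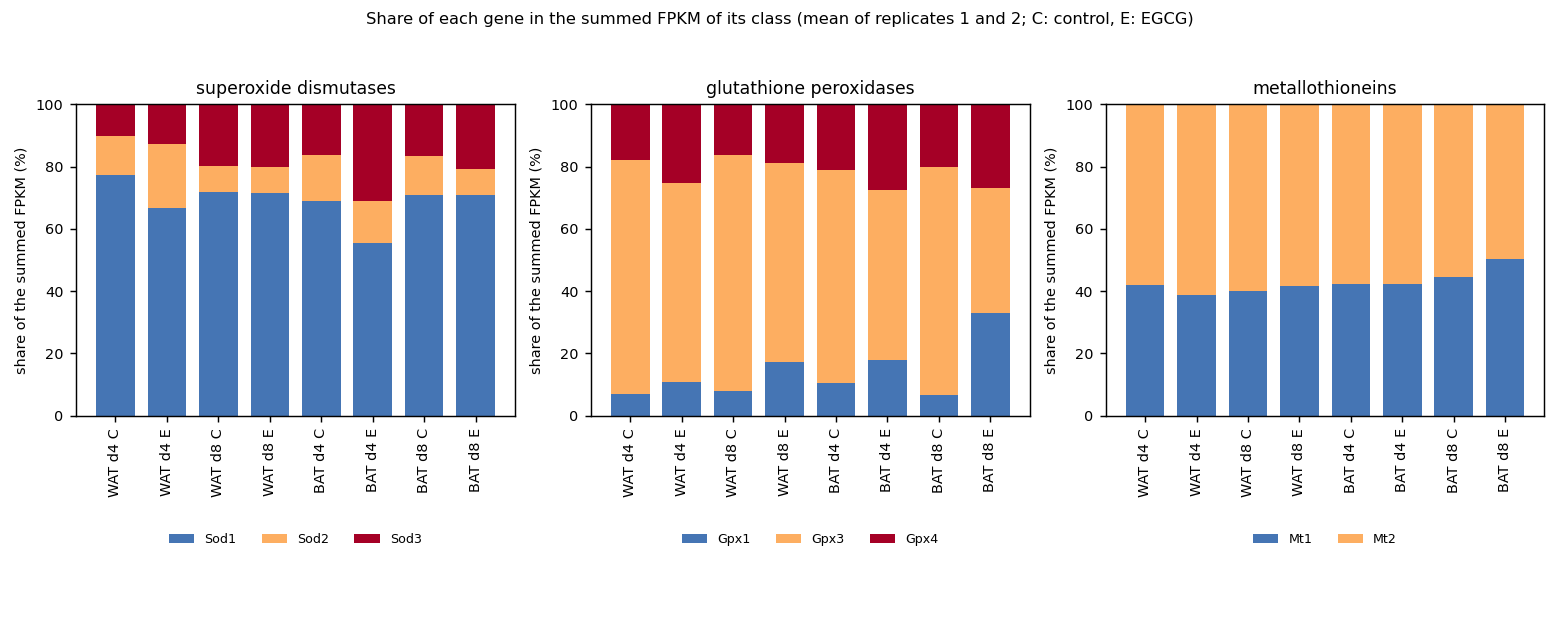
Share of each gene in the summed FPKM of its class (%), as the mean of replicates 1 and 2, in the 8 groups (C, control; E, EGCG). Gpx1 takes its highest share of the peroxidases in BAT d8 E, Sod3 its highest share of the dismutases in BAT d4 E, and the shares of Mt1 and Mt2 stay between 38.6% and 61.4% in every library of replicates 1 and 2.

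The metallothioneins were the most abundant of the 10 genes, and in BAT, but not in WAT, their order between treated and control cells turned between day 4 and day 8. White cells on day 4 had Mt2 at 2077, 1953 and 2607 FPKM as control and 5879, 5021 and 6905 with EGCG. Mt1 read 1483, 1435 and 1981 as control and 3699.5, 3219 and 4321 with EGCG. Every treated library was above every control for both genes. Mt2 rose 2.71-fold (1.43, SE 0.14, adjusted p 7.34e-06) and Mt1 2.37-fold (1.24, SE 0.12, adjusted p 5.20e-06). In BAT on day 4 Mt2 went from 2168, 1830.1 and 2271 to 4424, 3649.9 and 4125, and Mt1 from 1546, 1361 and 1768 to 3143, 2733 and 3091. These groups did not overlap either, and both genes rose 2.02-fold (1.01 each, SE 0.14 and 0.12, adjusted p 0.000117 and 2.61e-05). The day 4 effects did not differ between depots beyond the error (Mt2 -0.42, SE 0.20, adjusted p 0.148; Mt1 -0.23, SE 0.17, adjusted p 0.345). Of all tested genes 97.9% and 98.6% had a lower day 4 change in WAT than Mt1 and Mt2, and 96.7% in BAT.

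On day 8 the depots parted. In BAT Mt2 read 2980.1, 3223 and 3443 FPKM as control and 787, 638 and 922 with EGCG, and Mt1 read 2433, 2574 and 2869 as control and 799.9, 639.9 and 944 with EGCG. All treated BAT libraries were now below all controls, and these were the lowest values of both genes in any group outside the library that stood apart. Mt2 fell 4.35-fold (-2.13, SE 0.14, adjusted p 7.27e-08) and Mt1 3.48-fold (-1.80, SE 0.12, adjusted p 5.96e-08). Day 8 WAT cells had Mt2 at 2049.7, 2587 and 2714 FPKM as control and 2801, 2603 and 1189.9 with EGCG, and Mt1 read 1413, 1663 and 1823 as control and 1943, 1898 and 861 with EGCG. The treated values of replicates 1 and 2 were at or slightly above the controls, and the third was the library that stood apart, whose values after median-ratio scaling were 2880.0 for Mt2 and 2083 for Mt1. Mt2 had no called change (0.23, SE 0.14, adjusted p 0.185), and was called without WAT day 8 control replicate 2 (0.40, adjusted p 0.048). Mt1 was called narrowly (0.33, SE 0.12, adjusted p 0.0318) and lost the call with the median-ratio scaling (0.12, adjusted p 0.403) and without WAT day 8 control replicate 1 (0.21, adjusted p 0.207), EGCG replicate 1 (0.31, adjusted p 0.114) or EGCG replicate 2 (0.34, adjusted p 0.0819). The EGCG effect on day 8 differed between depots by -2.36 for Mt2 (SE 0.20, adjusted p 6.70e-06) and -2.13 for Mt1 (SE 0.17, adjusted p 3.62e-06). Between days in BAT it differed by -3.14 (adjusted p 3.14e-07) and -2.82 (adjusted p 1.76e-07).

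The 2 metallothioneins moved nearly in step. Mt1 held 41.7% and 42.4% of their summed FPKM in replicates 1 and 2 of WAT day 4 controls and 38.6% and 39.1% with EGCG, and 44.9% and 44.4% in BAT day 8 controls and 50.4% and 50.1% with EGCG. Their summed level was 3474 ± 122 FPKM (SD, n = 2) in WAT day 4 controls and 8909 ± 946 with EGCG, and 5605 ± 271 in BAT day 8 controls and 1432 ± 218 with EGCG.

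Slc30a1, which carries zinc out of the cell, was the lowest of the 10 genes and was called in 1 of the 4 EGCG comparisons. In WAT on day 4 it read 6.52, 6.53 and 7.68 FPKM as control and 10.4, 10.5 and 10.8 with EGCG, a 1.61-fold rise without overlap (0.61, SE 0.06, adjusted p 3.82e-06). In BAT on day 4 it read 5.88, 5.66 and 7.01 as control and 6.53, 6.01 and 6.55 with EGCG, and the change of 0.10 was not called (SE 0.06, adjusted p 0.158). The day 4 effects differed between depots by -0.51 (SE 0.08, adjusted p 0.000781), although Mt1 and Mt2 were higher with EGCG in both. On day 8 the change was 0.07 in WAT (adjusted p 0.337) and 0.06 in BAT (adjusted p 0.368), where Mt1 and Mt2 had fallen. The antisense gene 1700034H15Rik overlaps Slc30a1 in the annotation, and without strand their reads cannot be told apart.

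Whether the EGCG effect differed between depots or days was tested as an interaction for each gene. Between depots 3 of 10 genes differed on day 4 (1 higher and 2 lower in BAT; 28.1% of all tested genes differed, 12% higher and 16.1% lower) and 7 of 10 on day 8, none higher and all 7 with a lower effect in BAT (39.2% of all genes, 19.4% higher and 19.7% lower). Between days 7 of 10 differed in WAT (1 higher and 6 lower on day 8; 49.4% of all genes, 29.7% higher and 19.7% lower) and 9 of 10 in BAT (1 and 8; 55.4% of all genes, 34.7% and 20.6%). The gene with the higher effect on day 8 was Gpx1 in both depots, and with median-ratio scaling neither value was called (WAT 0.23, adjusted p 0.0752, and BAT 0.25, adjusted p 0.0515). The WAT call was also lost without any 1 of 4 libraries, WAT day 4 control or EGCG replicate 2 and WAT day 8 control or EGCG replicate 1 (0.23 to 0.26, adjusted p up to 0.125).

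In control cells the 3 glutathione peroxidases rose from day 4 to day 8 in both depots. Gpx1 rose 2.43-fold in WAT (1.27, adjusted p 5.44e-08) and 1.51-fold in BAT (0.59, adjusted p 1.66e-05), Gpx3 2.18-fold and 2.55-fold, and Gpx4 1.96-fold and 2.25-fold. Sod3 rose 2.11-fold in WAT (1.04, adjusted p 8.70e-06), and Mt1 and Mt2 rose in BAT by 1.72-fold and 1.55-fold (adjusted p 9.76e-05 and 0.00191). Sod2 fell in WAT (-0.48, adjusted p 2.03e-05) and Slc30a1 fell in BAT (-0.33, adjusted p 0.000237). Sod1 rose in BAT by 0.28 (adjusted p 0.0122), a call that was lost without BAT day 4 control replicate 1 (0.19, adjusted p 0.117) or BAT day 8 control replicate 2 (0.26, adjusted p 0.0542). Of the 10 genes 4 rose and 1 fell in WAT, where 27.7% of all tested genes rose and 33.2% fell (61% in either direction), and 6 rose and 1 fell in BAT, against 28.7% and 40.4% (69.2%). Median-ratio scaling moved the BAT all-gene median from -0.10 to 0.02 and the share of higher genes among those called from 41.5% to 53.3%, and 9 of the 10 genes then rose in BAT, with Cat, Sod2 and Sod3 added.

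Control BAT cells had higher levels of most of these genes than control WAT cells. On day 8 Sod2 was 2.38-fold higher in BAT (1.22, adjusted p 1.99e-08), Mt1 1.63-fold, Gpx4 1.58-fold, Sod1 1.52-fold and Cat 1.45-fold. On day 4 Sod3 was 2.31-fold higher (1.17, adjusted p 7.55e-06), Gpx1 1.78-fold and Sod2 1.63-fold, while Mt1 and Mt2 were level (-0.01 and -0.02, SE 0.12 and 0.14). In the day 4 cells 6 genes were higher in BAT and 1 lower, against 41.4% and 14.4% of all tested genes (55.8%), and in the day 8 cells 8 were higher and 1 lower, against 31.6% and 22% (53.6%). With median-ratio scaling the day 4 all-gene median went from 0.15 to 0.02 and the share of higher genes among those called from 74.3% to 51.5%, and 4 of the 10 genes were then higher, with Cat (adjusted p 0.0892) and Sod1 (adjusted p 0.0967) no longer called. Slc30a1 was the lower one on both days (-0.15 and -0.47). Its day 4 call was lost without any 1 of the 4 day 4 control libraries or either WAT day 8 EGCG library (-0.18 to -0.13, adjusted p up to 0.162). On day 8 the calls of Sod3 and Mt2 depended on single control libraries. Sod3 (0.39) was lost without WAT replicate 2 (0.21, adjusted p 0.122) or BAT replicate 2 (0.34, adjusted p 0.0777), and Mt2 (0.43) without WAT replicate 1 (0.26, adjusted p 0.197), BAT replicate 1 (0.49, adjusted p 0.0506) or BAT replicate 2 (0.37, adjusted p 0.12). Gpx3 (0.32) kept its call but fell to 0.21 without WAT replicate 1.

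**Figure D4:**
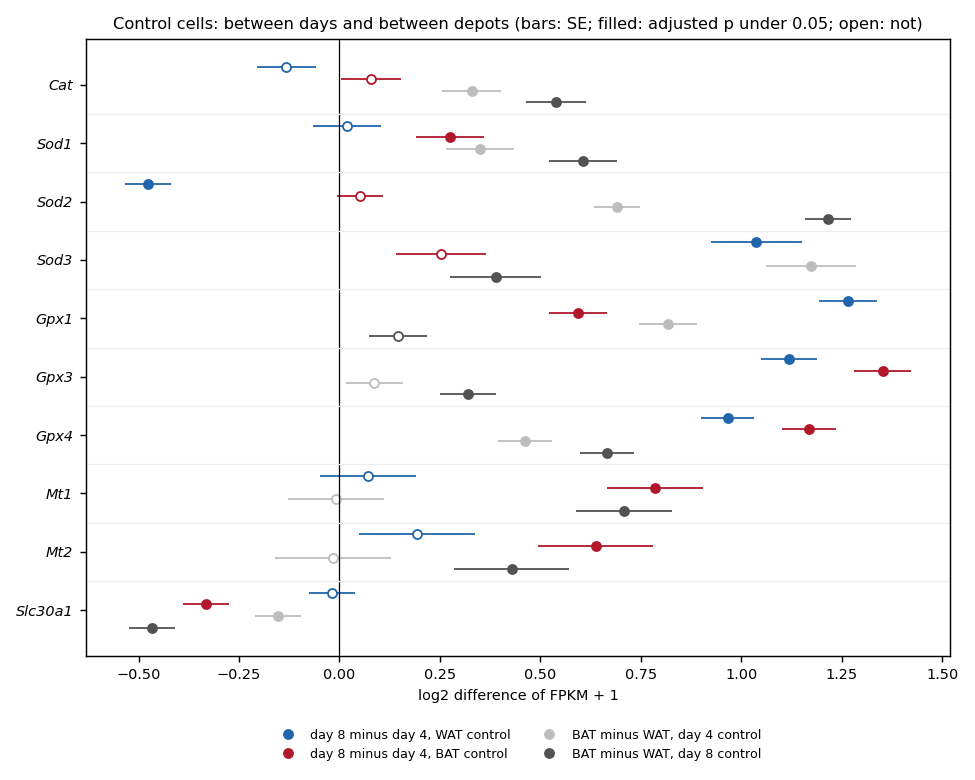
Log2 difference of FPKM + 1 in control cells, for each gene between days (blue WAT, red BAT) and between depots (light grey day 4, dark grey day 8), with bars for 1 standard error and filled points for an adjusted p under 0.05. The 3 peroxidases lie between 0.59 and 1.35 for the differences between days, and Slc30a1 is the gene with values to the left of 0 between depots on both days that were called.

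Replicate 3 had the same direction as the call for every called gene in WAT day 4 (7 of 7), BAT day 4 (9 of 9) and BAT day 8 (9 of 9) with EGCG, and in all 4 comparisons of controls. In WAT day 8 it had the same direction for 6 of 8 as deposited, with Gpx1 and Mt1 opposite, and for 8 of 8 after median-ratio scaling.

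Other genes of the same pathways were taken from fixed lists. The zinc handling list (21 genes, 17 tested) had 8 genes higher and 1 lower with EGCG on day 4 in each depot, 14 higher and none lower on day 8 in WAT, and 11 higher and 2 lower on day 8 in BAT. Its median log2 change was 0.18 and 0.38 in WAT (day 4, day 8) and 0.13 and 0.45 in BAT, where the medians over all tested genes were 0.09, 0.17, 0.03 and 0.17. Medians of the other lists are given in this order. Slc39a6, a zinc importer of the ZIP family, was among the genes named in all 4 comparisons. It read 13.2 and 13.5 FPKM in WAT day 4 controls and 50.7 and 45.6 with EGCG (1.77), and 14.1 and 15.3 in BAT day 8 controls and 64.2 and 65.5 with EGCG (2.07), and the groups stood far apart. Its log2 change was 1.79 in WAT day 8 and 1.60 in BAT day 4. Mtf1, the zinc sensor itself, was called higher in all 4.

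The list of glutathione synthesis and other peroxidases (9 genes, 8 tested) had 6 higher and 1 lower on day 4 and 5 and 1 on day 8 in WAT, and 4 and 3, then 4 and 2, in BAT (medians 0.43, 0.47, 0.06 and 0.37). Gclc, the catalytic subunit of the rate-limiting enzyme of glutathione synthesis, rose from 17.1 and 17.6 to 70.7 and 61.7 FPKM in WAT day 4 (1.87), by 1.36 in WAT day 8 and from 10.7 and 11.1 to 35.3 and 35.6 in BAT day 8 (1.62). G6pdx, which supplies NADPH for the reduction of glutathione, fell in WAT day 8 (-1.46). Gpx7, a peroxidase of the endoplasmic reticulum, fell in WAT day 4 (-0.78) and was called higher in BAT day 8. Slc7a11, the cystine importer, fell in BAT day 4 (-1.03) but was called higher in WAT on both days and in BAT day 8. In the peroxiredoxin and thioredoxin list (14 genes, all tested) 7 rose and 3 fell on day 4 and 6 and 4 on day 8 in WAT, and 5 and 3, then 5 and 7, in BAT (medians 0.17, 0.11, 0.17 and -0.25). Txnrd1 and Srxn1 were higher in all 4, and Prdx3, the peroxiredoxin of mitochondria, and Prdx4 were lower in all 4.

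The selenoprotein synthesis list (7 genes) had no called gene on day 4 in WAT (3 after median-ratio scaling) and 1 higher and 2 lower on day 8. In BAT 3 were lower on day 4, and 2 were higher and 5 lower on day 8 (medians 0.02, 0.03, -0.11 and -0.34). Sepp1, the secreted selenium carrier, fell in BAT day 8 from 612 and 623 to 120.4 and 116 FPKM (-2.38), in the comparison in which Gpx3 and Gpx4 fell and Gpx1 rose. Of the copper handling list (10 genes, 8 tested) 5 were higher and 1 lower in WAT on both days, and 3 and 1, then 4 and 3, in BAT (medians 0.22, 0.30, 0.04 and 0.10). Ccs, the copper chaperone of Sod1, and the copper pump Atp7a were higher in all 4. Among the sources of superoxide and peroxide (9 genes, 8 tested) 2 were higher and 3 lower on day 4 and 2 and 5 on day 8 in WAT, and 1 and 3, then 2 and 4, in BAT (medians -0.06, -0.55, -0.01 and -0.67). Maob, a monoamine oxidase of mitochondria, fell in all 4 (-1.67, -1.65, -1.30 and -2.30), and Cyba, a subunit of NADPH oxidases, rose in all 4, by 1.51 in BAT day 4, from 17.3 and 17.0 to 52.2 and 48.9 FPKM. The shares of all tested genes given above for each comparison apply to these counts.

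Markers of other cells in the cultures moved too. Beside the counts below, 34.4% and 44.7% of all tested genes were higher in WAT (day 4, day 8) and 27.9% and 46.5% in BAT. The shares of lower genes were 19.3%, 18.9%, 20.6% and 26.1% in that order. Of 8 macrophage markers (7 tested) 6 were higher with EGCG in WAT day 4 and 4 in BAT day 4 with none lower, while all 7 were lower in WAT day 8 and 6 in BAT day 8. Their summed level in replicates 1 and 2 was 69.3 to 74.2 FPKM in WAT day 4 controls and 184 to 188 with EGCG, and 106 to 109 in BAT day 8 controls and 58.0 to 58.7 with EGCG, and Ptprc, the pan-leukocyte antigen, stayed below 1 FPKM in every library. Lyz2 made up most of the sum. Of 6 endothelial markers (5 tested) 4 were higher in WAT on each day and all 5 in BAT on each day, with sums of 11.1 to 21.7 FPKM in controls and 29.0 to 38.8 with EGCG. The skeletal muscle list (6 genes, 3 tested) had 2, 1, 0 and 0 genes higher and 0, 1, 0 and 1 lower, in the order WAT (day 4, day 8) and BAT. In the same order the brown identity list (6 genes) had 1, 1, 0 and 2 higher and 2, 1, 3 and 4 lower, and the white identity list (4 genes, 3 tested) had 0, 3, 0 and 2 higher and 3, 0, 0 and 0 lower. With EGCG on day 4 called macrophage markers and both metallothioneins were higher in both depots, and in BAT on day 8 they were lower. In WAT on day 8 all 7 tested macrophage markers were lower (median -0.85), while Mt1 was at 0.33 and Mt2 at 0.23, and the part of the former in the latter was not tested.

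The gene with the pattern most like each of the 10 was found by Pearson r of log2(FPKM + 1) over the 16 libraries of replicates 1 and 2, among 8703 other genes. Mt1 and Mt2 were nearest to each other (r 0.985). Sod1 was nearest to Qdpr (0.995), a pterin reductase, Gpx4 to Acadsb (0.988), an acyl-CoA dehydrogenase of mitochondria, Cat to Isoc2a (0.985), Gpx1 to Aes (0.980), Gpx3 to Rab3d (0.977), Sod2 to 9430023L20Rik (0.966), Slc30a1 to Gabre (0.948) and Sod3 to Kazald1 (0.908). These are descriptions, since the 16 libraries come from 8 groups and pairs of genes share their depth and scaling, and Sod3 and Slc30a1 were the least like any other gene. In the GENCODE vM1 annotation of NCBIM37 the 10 are protein-coding genes. Mt2 (chr8:96696518-96697467) and Mt1 (chr8:96702989-96704225) are neighbours on the plus strand, and the others lie apart, with Cat at chr2:103294006-103325317, Sod1 at chr16:90220987-90226567, Sod2 at chr17:13200705-13210985, Sod3 at chr5:52755185-52762644, Gpx1 at chr9:108241607-108242671, Gpx3 at chr11:54715955-54723879, Gpx4 at chr10:79509911-79519184 and Slc30a1 at chr1:193730646-193737126.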

How the data were processed

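RNA was sequenced from 24 libraries in 8 groups taken from the labels. The authors deposited FPKM values for 37310 genes in 2 tables, replicates 1 and 2 in the first and replicate 3 in the second. The first also gave the length of each gene (other unit, bases), which was used for both. The submitters' processing notes name FastQC 0.11.9, HISAT2 2.2.0, HTSeq 0.11 and the build mm9, and how they were set is not given in the sources used here. FPKM follows the make-up of the library, so a few very abundant genes lower all others. Values times length were whole multiples of 1 read (tolerance 0.01) in at least 99.83% of values above 0, which gave the reads behind a value. These cover counting error only.

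Genes with FPKM of at least 1 in at least 2 of the 16 libraries of replicates 1 and 2 were tested (14095). Log2(FPKM + 1), which understates changes of low genes, was fitted in limma 3.58.1 (R 4.3.3; 1 mean per group, eBayes with trend, 8 residual degrees of freedom), two-sided, with Benjamini-Hochberg adjustment within each of 12 comparisons, and the procedure was tested on simulated data. Alternatives were a pseudocount of 0.1, no filter, median-ratio scaling, quantile normalization, a replicate block, both tables together, and leaving out each library. The 10 genes, the pathway lists and the cell type markers were chosen with earlier results of these data known. All 120 list entries matched the annotation (GENCODE vM1), 1 through another symbol. The text names the 10 genes throughout, the nearest gene to each (mean FPKM of at least 5 over the 16 libraries) and, per EGCG comparison, 4 called pathway genes: the 2 that rose most and the 2 that fell most (mean FPKM of at least 5 in the higher group). Other list genes were named after their values were seen. Promoter windows are from RefSeq.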

Additional observations from a re-analysis of the deposited data

Results flagged for a closer look

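For 26 gene and comparison pairs the EGCG effect differed between depots or between days by an interaction term in limma (adjusted p under 0.05, Benjamini-Hochberg over 14095 genes, replicates 1 and 2). Values are differences of log2 changes.

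Between depots, BAT minus WAT, on day 4 the difference was -0.89 for Sod2, 0.49 for Sod3 and -0.51 for Slc30a1. On day 8 it was -0.46 for Cat, -0.56 for Sod1, -1.12 for Sod2, -1.60 for Gpx3, -0.77 for Gpx4, -2.13 for Mt1 and -2.36 for Mt2.

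Between days, day 8 minus day 4, the difference in WAT was -1.08 for Sod2, -0.69 for Sod3, 0.29 for Gpx1, -0.47 for Gpx4, -0.92 for Mt1, -1.20 for Mt2 and -0.55 for Slc30a1. In BAT it was -0.45 for Cat, -0.58 for Sod1, -1.32 for Sod2, -1.48 for Sod3, 0.40 for Gpx1, -1.68 for Gpx3, -1.07 for Gpx4, -2.82 for Mt1 and -3.14 for Mt2.

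The Sod3 difference between depots on day 4 lost its call without any 1 of 9 libraries (0.40 to 0.58 over all fits without 1 library). The Gpx1 differences were not firm either. The WAT value was not called without WAT day 4 control replicate 2 (0.26), WAT day 8 control replicate 1 (0.24), WAT day 4 EGCG replicate 2 (0.23) or WAT day 8 EGCG replicate 1 (0.24), with adjusted p of 0.0938 to 0.125. With median-ratio scaling neither the WAT value (0.23, adjusted p 0.0752) nor the BAT value (0.25, adjusted p 0.0515) was called.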

How the results depend on the processing

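Of the 87 calls made for the 10 genes in the 12 comparisons, 78 held without any 1 library and 9 did not, each named above with its libraries and values. Leaving out 1 library gave 7 to 7 called genes for EGCG in WAT on day 4, 7 to 9 in WAT on day 8, 7 to 9 in BAT on day 4 and 9 to 9 in BAT on day 8. Replicate numbers did not pair the libraries (correlation of their deviations -0.079 to 0.081). A replicate block gave 8 in place of 9 called genes in BAT day 4, where Gpx1 was lost (adjusted p 0.0535), and changed no other call. A pseudocount of 0.1 changed no call, and without the filter 6 of 120 values lost theirs.

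Both tables were also put in 1 fit as deposited (24 libraries, replicate block), which holds WAT day 8 EGCG replicate 3. There 32 calls of the 10 genes were lost with their sign kept. The calls of Mt1 in WAT day 8 and of Gpx1 in the effect between days in WAT were lost with a change of sign. The genes called were then 5 in place of 9 for EGCG in BAT day 4, 3 in place of 7 and 2 in place of 9 between depots on day 4 and day 8, 3 in place of 7 for the difference of the EGCG effect between depots on day 8, and 0 in place of 3 on day 4 (limma, 1 at an unadjusted p under 0.05, and 2 to 5 under the other alternatives). Over all tested genes this fit called 2963 in place of 7567 (WAT day 4), 3637 of 8962 (WAT day 8), 2537 of 6838 (BAT day 4), 6526 of 10231 (BAT day 8), 3943 of 8591 and 5456 of 9751 (days, WAT and BAT), 2395 of 7867 and 2722 of 7555 (depots, day 4 and day 8), 586 of 3959 and 1897 of 5520 (effect between depots), and 2261 of 6962 and 2205 of 7803 (effect between days, WAT and BAT). Without that library no call of the 10 genes was lost, and 5 in place of 3 differed between depots on day 4. Median-ratio scaling moved the share of higher genes among those with a different EGCG effect from 42.7% to 61.5% (depots, day 4) and from 62.8% to 49.3% (days, BAT).

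Log2 changes that changed sign were not called as reported, apart from Mt1 in WAT day 8 and the difference of Gpx1 between days in WAT. The cause was not tested. With median-ratio scaling these were Sod3 in WAT day 4 (-0.070), Slc30a1 with EGCG in WAT day 8 (-0.11) and BAT day 8 (-0.10), between days in WAT (0.013) and in the effect between depots on day 8 (0.011), and Gpx3 between depots on day 4 (-0.079). With quantile normalization they were Slc30a1 in WAT day 8 (-0.022) and in the effect between depots on day 8 (0.024), Sod1 between days in WAT (-0.10), Cat between days in BAT (-0.031), Mt1 (0.11) and Mt2 (0.17) between depots on day 4, Gpx1 between depots on day 8 (-0.0032) and Gpx3 in the effect between days in WAT (0.12).

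With both tables and the replicate block they were Mt1 (-0.14), Mt2 (-0.24) and Slc30a1 (-0.31) in WAT day 8, Sod1 between days in WAT (-0.034), Sod2 between days in BAT (-0.0058), Sod3 (0.077) and Slc30a1 (0.40) in the effect between depots on day 8, and Gpx1 (-0.095) and Slc30a1 (0.054) in the effect between days in WAT and BAT. Without WAT day 8 EGCG replicate 3 the Sod1 value (-0.034), the Sod2 value (-0.0058) and the Slc30a1 value in BAT (0.054) stayed the same. With median-ratio scaling added they were Sod3 (-0.0023) and Gpx1 (-0.018) in WAT day 4, Mt2 (-0.0068) and Slc30a1 (-0.13) in WAT day 8, Slc30a1 in BAT day 4 (-0.019) and day 8 (-0.076), Gpx3 between depots (-0.083) and in the effect between depots (0.047) on day 4, and Slc30a1 in the effect between depots on day 8 (0.054).

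Leaving out 1 library turned Sod3 (-0.025 to 0.15) and Gpx4 (-0.10 to 0.056) in WAT day 4, Sod1 (-0.14 to 0.18), Mt1 (-0.046 to 0.19) and Slc30a1 (-0.077 to 0.040) between days in WAT, Mt1 (-0.10 to 0.084) and Mt2 (-0.14 to 0.11) between depots on day 4, Gpx1 in the effect between depots on day 4 (-0.044 to 0.15), and Slc30a1 in the effect between depots on day 8 (-0.065 to 0.053) and between days in BAT (-0.095 to 0.0078).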
